A study of Homo sapiens with 2 samples.

Results

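The 10 genes described here encode the inducible HSP70 chaperones (HSPA1A and HSPA1B), the constitutive HSP70 (HSPA8), 2 HSP110 proteins (HSPA4 and HSPH1), the mitochondrial chaperonin HSP60 and its cochaperonin HSP10 (HSPD1 and HSPE1), 2 small heat shock proteins (HSPB1 and CRYAB) and the heat shock transcription factor HSF1. They were taken by gene symbol from 2 RNA sequencing libraries of the A549 line, cultured cells that derive from a human lung adenocarcinoma. All 10 were listed in both libraries, among 18812 gene identifiers that had a value in both. The vector library came from cells stably transduced with a retroviral vector, and the ATOH8 library from cells stably transduced with retroviral ATOH8. The ATOH8 protein is a transcription factor of the basic helix-loop-helix (bHLH) family. Both cultures were grown in the same serum-supplemented medium, and the labels name no heat treatment. The labels do not say whether either culture was a clone or a pool, or how long after transduction the RNA was taken. There was 1 library per group, so each difference below compares 2 libraries, has no error from replicates and carries no p-value of its own.

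HSP70 chaperones bind stretches of unfolded protein and release them in a cycle driven by ATP. J-domain proteins of the DNAJ family start that cycle, and HSP110 and BAG proteins reset it by exchanging the nucleotide. In mitochondria, HSP60 and HSP10 together form a closed chamber in which imported proteins fold, and small heat shock proteins hold unfolded proteins without using ATP. HSF1 is held inactive in unstressed cells, and on stress it forms trimers that bind heat shock elements, which are repeats of the letters GAA in alternating orientation, in the promoters of many chaperone genes.

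Values are FPKM, fragment counts divided by the length of the transcript and the size of the library, which allows levels to be compared between genes. In all, 20966 genes were listed for the vector library and 20870 for the ATOH8 library. Since the sources used here give no read depth, counting intervals could not be set. The transduced gene measured 0.786 FPKM with the vector and 182 FPKM with ATOH8. Of 14 markers of A549 cells, 12 were at 10 FPKM or more in both libraries, and EPCAM (1.70 and 2.23 FPKM) and KRT19 (0.219 and 0.0700 FPKM) were low in both. Fibroblast, endothelial and erythroid markers were each unlisted or at 0.362 FPKM or less in both libraries. Of the leukocyte markers reported, CD14 was at 1.12 and 9.14 FPKM and CD68 at 2.14 and 15.4 FPKM, vector and ATOH8. PTPRC, which defines leukocytes, was unlisted with the vector and measured 0.0111 FPKM with ATOH8. CD3E was unlisted in both. In RNA from whole cultures, fewer cells that express a gene and less RNA per cell cannot be told apart.

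Fold changes are differences of log2(FPKM + 1), ATOH8 minus vector, so the change of low genes is understated. They are given relative to the median gene, whose log2 fold was -0.36 over genes averaging 5 FPKM or more, and 2-fold (1 on the log2 scale) is used as the rule of size. By this rule HSPA8, HSPA4, HSPH1 and HSPE1 were lower in the ATOH8 library and HSPB1 and CRYAB higher, while HSPA1A, HSPA1B, HSPD1 and HSF1 lay within 2-fold of the median gene. The 4 lower members stand beside 9.46% of all 12342 genes averaging 1 FPKM or more (the tested genes), and the 2 higher members beside 12.8%. The median of the 10 members was -0.69, against 0.06 over all tested genes.

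**Figure D1:**
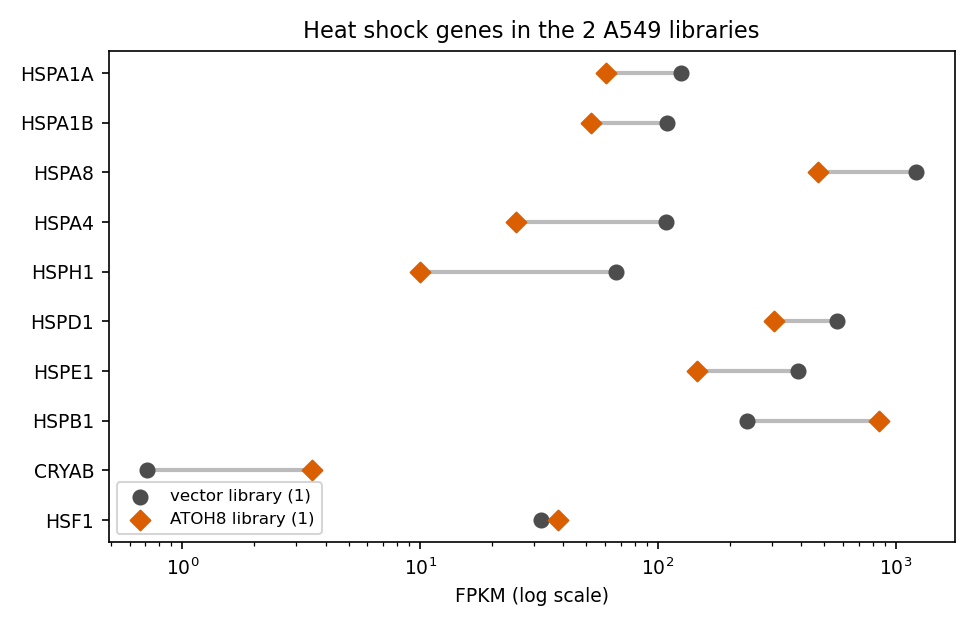
FPKM of the 10 genes in the vector library (circles) and the ATOH8 library (diamonds) on a log axis, 1 library each, with a line joining the 2 values of a gene. The 7 HSP70, HSP110, HSP60 and HSP10 genes lie lower in the ATOH8 library, and HSPB1, CRYAB and HSF1 lie higher.

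The inducible HSP70 genes HSPA1A and HSPA1B are neighbours without introns on chromosome 6 (31815464 to 31817946 and 31827735 to 31830255, plus strand, GRCh38, GENCODE 29). HSPA1A measured 125 FPKM with the vector and 60.3 FPKM with ATOH8. HSPA1B measured 109 and 52.1 FPKM in the same order, which is kept for all pairs of values below. Both were therefore lower by the deposited values, with log2 folds of -1.04 and -1.05, and stood at -0.68 and -0.69 relative to the median gene. The longest reading frames of the annotated transcripts differed at 4 of 1926 aligned bases, an identity of 99.8%, and the whole transcripts were 96.0% identical over 2396 aligned bases. Reads of one can therefore be assigned to the other. The ratio of HSPA1A to HSPA1B was 1.15 in the vector library and 1.16 in the ATOH8 library. Their sum, which does not depend on that assignment, was 234 and 112 FPKM, with a relative log2 fold of -0.69.

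HSPA8 (chromosome 11, 123057489 to 123063230, minus strand, 9 exons), the HSP70 made at all times, was the most abundant of the 10 genes in the vector library. Its level was 1218 FPKM there and 472 FPKM with ATOH8, ranks 54 and 139 among the listed genes. Its relative log2 fold of -1.01 was just past the 2-fold rule (-0.98 with a pseudocount of 0.1 FPKM), and 9.35% of the tested genes were lower. HSPA8 exceeded HSPA1A alone 9.75-fold in the vector library and 7.83-fold in the ATOH8 library. The excess over HSPA1A and HSPA1B summed (234 and 112 FPKM) was smaller. Both libraries still held mostly the constitutive form. The authors' deposited table of their own comparison marked HSPA8 down with a log2 ratio of -1.37 and a q-value of 6.832e-08, and did not list HSPA1A or HSPA1B. That table holds 2747 genes with q-values up to 0.04998, and its p-values come from 1 library against 1 library.

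The promoters of HSPA1A, HSPA1B, HSPA8, HSPH1 and HSPB1 are shown because they set 2 HSP70 twins, the abundant HSP70, the member furthest below the vector library and the abundant member above it side by side. Each run is the 250 bases before the RefSeq start (GRCh38.p14), 5′ to 3′ on the gene's strand, with pairs of heat shock units (GAANNTTC or TTCNNGAA) in capitals.

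HSPA1A (chr6:31815293-31815542, plus strand): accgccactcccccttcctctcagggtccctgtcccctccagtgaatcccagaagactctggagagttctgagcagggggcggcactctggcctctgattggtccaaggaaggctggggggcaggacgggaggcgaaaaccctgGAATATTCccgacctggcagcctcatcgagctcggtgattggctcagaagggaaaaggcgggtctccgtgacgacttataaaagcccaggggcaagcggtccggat

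HSPA1B (chr6:31827488-31827737, plus strand): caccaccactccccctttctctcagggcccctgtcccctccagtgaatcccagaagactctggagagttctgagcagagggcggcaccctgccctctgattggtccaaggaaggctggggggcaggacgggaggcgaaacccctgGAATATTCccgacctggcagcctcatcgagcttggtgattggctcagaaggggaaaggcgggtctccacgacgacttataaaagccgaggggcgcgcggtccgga

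HSPA8 (chr11:123062137-123062386, minus strand): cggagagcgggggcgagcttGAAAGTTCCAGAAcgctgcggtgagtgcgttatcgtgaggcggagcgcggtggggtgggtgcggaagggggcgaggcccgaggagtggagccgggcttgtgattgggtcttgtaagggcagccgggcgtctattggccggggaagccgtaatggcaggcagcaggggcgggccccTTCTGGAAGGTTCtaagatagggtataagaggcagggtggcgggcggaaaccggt

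HSPH1 (chr13:31162389-31162638, minus strand): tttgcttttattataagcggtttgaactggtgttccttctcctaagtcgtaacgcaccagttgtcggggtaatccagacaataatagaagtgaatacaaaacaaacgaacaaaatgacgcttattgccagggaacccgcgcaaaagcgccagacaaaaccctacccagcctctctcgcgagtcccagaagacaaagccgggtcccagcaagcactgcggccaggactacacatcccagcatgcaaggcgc

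HSPB1 (chr7:76302423-76302672, plus strand): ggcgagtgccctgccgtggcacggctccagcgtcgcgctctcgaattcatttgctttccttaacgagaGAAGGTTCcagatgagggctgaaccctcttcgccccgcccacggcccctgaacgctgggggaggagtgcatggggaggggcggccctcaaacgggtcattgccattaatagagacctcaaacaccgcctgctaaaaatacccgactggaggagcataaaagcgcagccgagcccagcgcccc

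Windows were found for 8 of the 10 members. The letters were searched on both strands. A pair of units of either kind was present in a window of 5 of these 8 members (HSPA1A, HSPA1B, HSPA8, HSPD1 and HSPB1), against 11.6% of all 35116 windows in the RefSeq table. A run of 3 alternating units (GAANNTTCNNGAA or its reverse complement, which contains both pairs) was present for HSPA8 and HSPD1, against 0.441% of all windows. In HSPA8 these runs begin 230 and 55 bases before the start. In HSPA1A the pair begins 106 bases before the start, followed by the letters TATAAA 30 bases before it, and in HSPA1B the same letters begin 105 and 29 bases before the start. TATAAA was present in 10.7% of all windows, and in windows of only these 2 of the 8 members. In HSPB1 the pair begins 182 bases before the start. CCAAT, present in 32.0% of all windows, occurred at 2 positions in each of HSPA1A, HSPA1B and HSPA8. The bHLH recognition letters CANNTG were present in windows of HSPA4, HSPH1, HSPD1, HSPE1 and HSPB1, and in 61.8% of all windows. Members with a unit pair thus include HSPA8, lower in the ATOH8 library, and HSPB1, higher in it. HSPH1 and HSPA4, furthest below, had no unit pair in this window. Only exact letters in the 250 bases before a start were searched, so units with a changed letter or placed elsewhere were missed.

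HSPH1 (chromosome 13, 31134974 to 31162388, minus strand, 18 exons) and HSPA4 (chromosome 5, 133051962 to 133106449, plus strand, 19 exons) encode HSP110 proteins, relatives of HSP70 that release its nucleotide. HSPH1 measured 66.4 FPKM with the vector and 9.97 FPKM with ATOH8, 6.67-fold lower by the deposited values. Its relative log2 fold was -2.26, and only 0.170% of the tested genes lay lower. HSPA4 was at 108 and 25.2 FPKM, with a relative log2 fold of -1.70, and 1.43% of the tested genes lay lower. These were the members with the lowest folds, and the authors' deposited table marked both down, with q-values of 8.338e-09 for HSPH1 and 0.0003846 for HSPA4. The HSP110 transcripts were thus further below the vector library than the HSP70 transcripts they serve. After the GC correction described below the order held, but the gap was smaller. HSPH1 then stood at -1.74 and HSPA4 at -1.39, against -1.21 for HSPA1A, -1.20 for HSPA1B and -1.04 for HSPA8. HSPA8 exceeded HSPH1 18.3-fold in the vector library and 47.4-fold in the ATOH8 library, and exceeded HSPA4 11.3-fold and 18.7-fold.

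**Figure D2:**
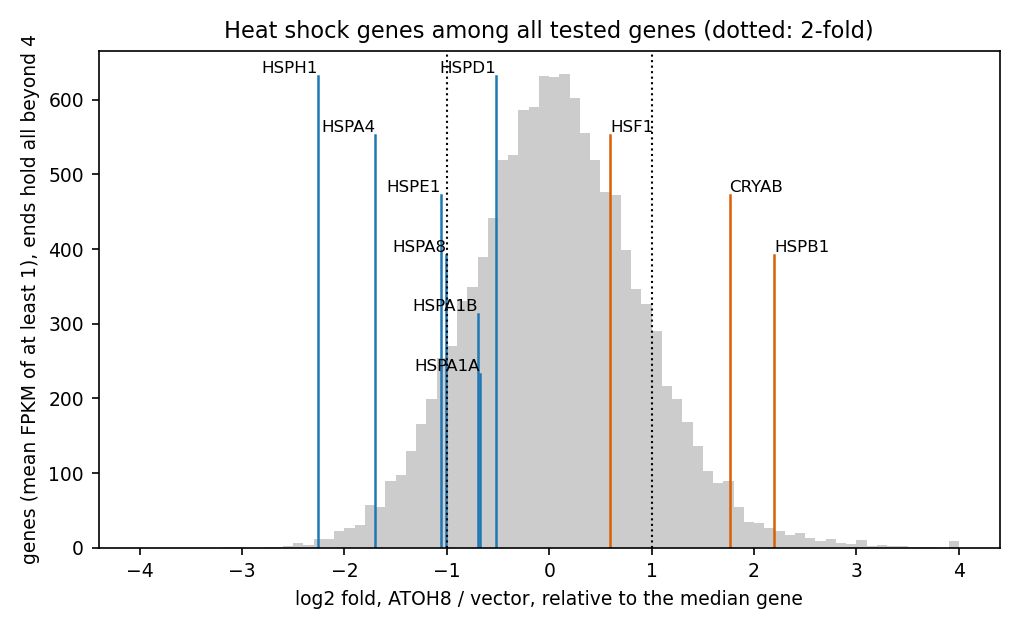
Histogram of the log2 fold, ATOH8 against vector, relative to the median gene, over 12342 genes averaging 1 FPKM or more, with values beyond 4 placed in the end bins. Vertical lines mark the 10 genes, from HSPH1 at -2.26 to HSPB1 at 2.19, and dotted lines mark 2-fold.

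HSPD1 and HSPE1, of the mitochondrial chamber, lie head to head on chromosome 2 (197486581 to 197516737, minus strand, and 197499994 to 197503457, plus strand). HSPD1 measured 564 FPKM with the vector and 306 FPKM with ATOH8, a relative log2 fold of -0.52. HSPE1 was at 389 and 145 FPKM, a relative log2 fold of -1.06. Although both were lower by the deposited values, HSPE1 was further below, and the ratio of HSPD1 to HSPE1 was 1.45 in the vector library and 2.11 in the ATOH8 library. The authors' deposited table marked HSPE1 down with a q-value of 0.003122 and did not list HSPD1. RefSeq gives 2 starts for HSPD1. Overlapping runs of 3 units begin 245 and 240 bases before the inner start, and are shown because they lie within the annotated spans of both genes. They lie outside the bases between the outer HSPD1 start and the HSPE1 start (197500275 to 197500378). In the 30 bases printed here the unit letters are in capitals.

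HSPD1 (chr2:197500061-197500090, minus strand): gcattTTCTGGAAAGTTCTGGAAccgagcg

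The deposited locus of this pair also spans MOB4 (23.7 and 5.64 FPKM) and the read-through gene HSPE1-MOB4 (1.62 and 1.18 FPKM), so reads could have been divided among 4 genes. Processed copies are a further source of shared reads. GENCODE 29 names 26 HSPE1, 17 HSPD1, 17 HSPA8 and 2 HSPB1 pseudogenes, of which 6 were listed in either library, none above 0.235 FPKM.

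HSPB1 (chromosome 7, 76302544 to 76304295, plus strand, 2 exons in its longest transcript) encodes HSP27, a small heat shock protein that also binds the actin cytoskeleton. Its level was 237 FPKM with the vector and 847 FPKM with ATOH8, 3.58-fold higher by the deposited values. Its relative log2 fold was 2.19, with 1.13% of the tested genes higher, and its rank among the listed genes was 259 and 77. HSPB1 thereby stood above HSPA8 in the ATOH8 library, at a ratio of 1.79, where the ratio had been 0.194 in the vector library. CRYAB (chromosome 11, 111908565 to 111923722, minus strand) encodes alpha-B-crystallin, the lens and muscle relative of HSPB1. It was at 0.712 and 3.53 FPKM, a relative log2 fold of 1.76. HSPB1 exceeded CRYAB 332-fold in the vector library and 240-fold in the ATOH8 library, so both libraries held mostly HSPB1. The authors' deposited table marked both up, with q-values of 0.007413 for HSPB1 and 0.004757 for CRYAB. The deposited locus of CRYAB also spans C11orf52, and at this level its fold depended on the pseudocount, moving from 2.54 with 0.1 FPKM to 0.86 with 5 FPKM.

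HSF1 measured 32.1 FPKM with the vector and 38.0 FPKM with ATOH8, a relative log2 fold of 0.60 (-0.04 after the GC correction described below), with 25.4% of the tested genes higher by the first value. It was the member that differed least by the deposited values, at a ratio of 1.19. The authors' deposited table did not list it. Its deposited locus also spans DGAT1 (14.2 and 14.5 FPKM). FPKM measures the transcript, and HSF1 is controlled largely at the level of the protein.

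Summed, the 7 HSP70, HSP110, HSP60 and HSP10 genes made up 0.478% of all FPKM in the vector library and 0.213% in the ATOH8 library. HSPB1 and CRYAB made up 0.0439% and 0.169%. All 10 members together made up 0.528% and 0.390%.

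The number of members past 2-fold depended on the scaling, and the median gene was itself lower in the ATOH8 library. By the FPKM as deposited, 6 members were at least 2-fold lower, HSPA1A and HSPA1B joining the 4 named above, beside 19.0% of all genes. The same 2 were at least 2-fold higher, beside 6.24%. Marked down in the authors' deposited table were 4 members, beside 14.7% of the tested genes, and 2 up, beside 5.16%. Every member kept its direction with the FPKM as deposited and with FPKM scaled to an equal sum in both libraries (TPM).

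**Figure D3:**
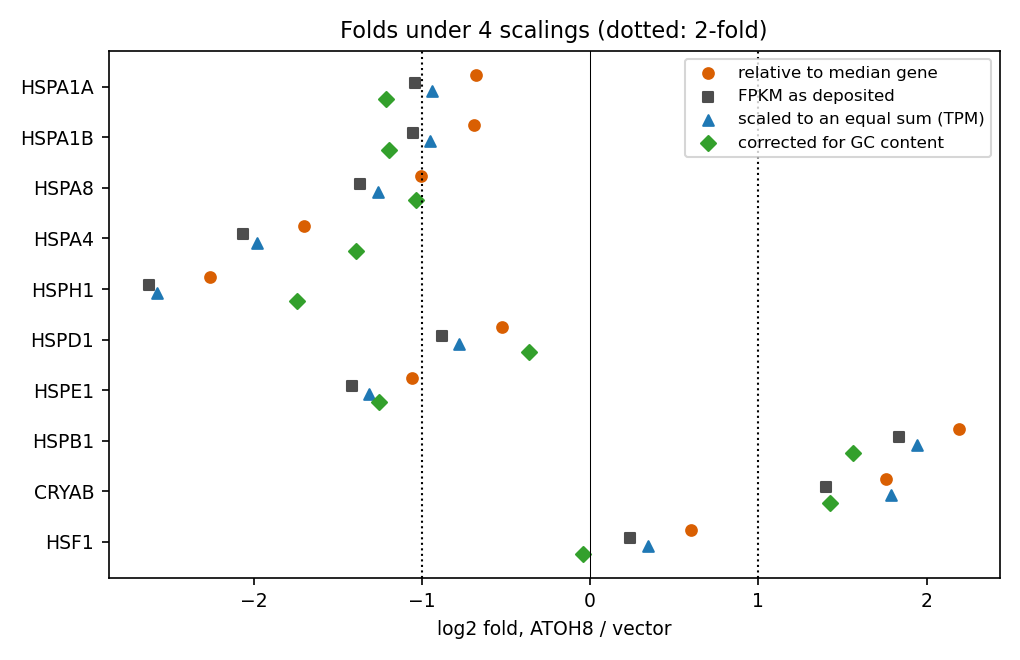
Log2 fold of the 10 genes under 4 scalings: relative to the median gene (circles), FPKM as deposited (squares), scaled to an equal sum per library (TPM, triangles) and corrected for GC content (diamonds), 1 library per group, with dotted lines at 2-fold. HSPA8, HSPH1, HSPA4, HSPE1, HSPB1 and CRYAB stay past 2-fold under all 4, and HSPA1A and HSPA1B are past it with the FPKM as deposited and after the GC correction.

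Base composition moved with the fold across all genes. The median relative log2 fold was -0.70 in the decile of genes lowest in GC content and 0.63 in the highest. The members span these deciles. HSPH1 (40.0% GC) and HSPA4 (42.5%) were AT-rich, HSPA8 (47.0%) and HSPE1 (50.2%) near the middle, and HSPA1A (59.7%), HSPA1B (58.7%), HSPB1 (64.3%) and HSF1 (64.7%) GC-rich. A correction against a smooth curve of fold on GC content brought HSPH1 to -1.74, HSPA4 to -1.39 and HSPB1 to 1.56. It placed HSPA1A and HSPA1B further down, at -1.21 and -1.20, since genes of like GC content had a median of 0.54, and it brought HSF1 to -0.04. After it, 6 members were at least 2-fold lower, beside 5.94% of all genes, and 2 at least 2-fold higher, beside 8.33%. These were the same members as with the FPKM as deposited.

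**Figure D4:**
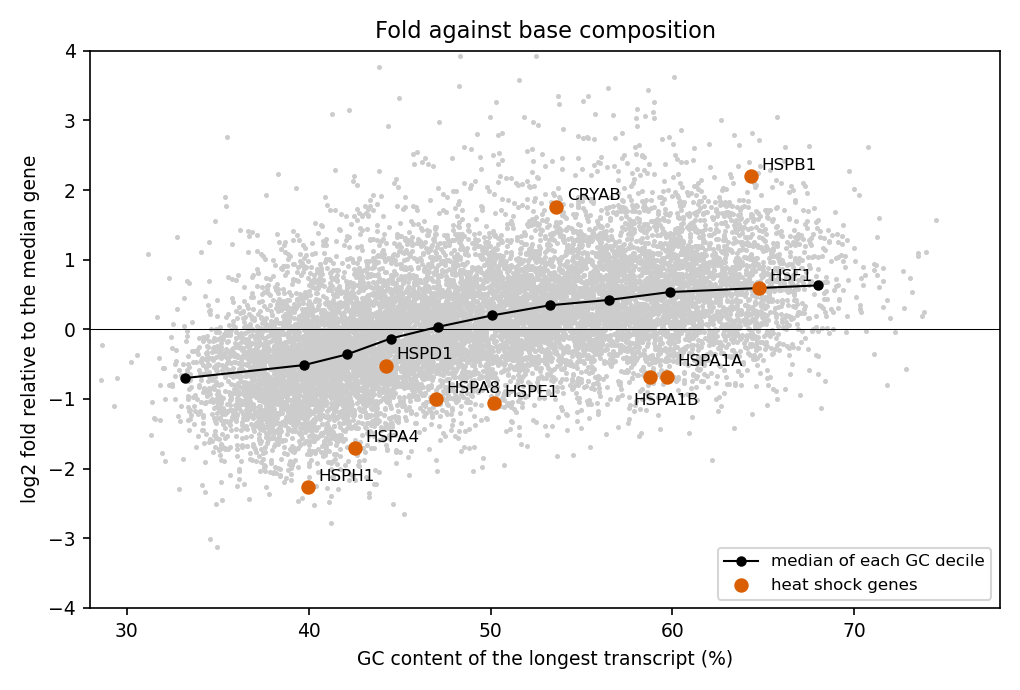
Log2 fold relative to the median gene against GC content of the longest transcript in percent, for all tested genes (grey) and the 10 heat shock genes (orange), with the median of each GC decile (black line, plotted at the middle of the decile's range). HSPA1A and HSPA1B lie below the median of 0.54 for their decile, and HSF1 lies close to that of 0.63 for its own.

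Related genes were read from lists of named families and partners. Of 9 tested HSP70 and HSP110 relatives outside the members, 1 passed 2-fold downward and 0 upward (list median -0.55), a share downward close to the 9.46% of all tested genes. Upward the share of all tested genes was 12.8%, and both shares apply to each list below. That gene was HSPA14, a ribosome-associated HSP70, at 37.0 and 7.06 FPKM (-1.88). HSPA9, the mitochondrial HSP70, stood at 210.2 and 94.7 FPKM (-0.78), and HSPA5, the endoplasmic reticulum HSP70 also known as BiP, at 168 and 88.8 FPKM (-0.55). HYOU1, the HSP110 relative of the endoplasmic reticulum, was at 18.3 and 20.7 FPKM (0.53). HSPA4L, the closest relative of HSPA4, was at 4.64 and 1.59 FPKM (-0.77), and HSPA13 at 10.1 and 4.37 FPKM (-0.69). The GC correction was applied to the lists after the data were seen. It brought HSPA4L to -0.13 and HSPA13 to 0.07, so neither differed much from genes of like GC content. HSPA14 stood at -1.61 after it, HSPA9 at -0.56, HSPA5 at -0.52 and HYOU1 at 0.14. The strictly inducible HSPA6 was at 0.268 and 0.143 FPKM, near 0 in both libraries.

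Only 2 of 9 further small heat shock genes averaged 1 FPKM or more. HSPB8, a partner of BAG3 in selective autophagy, was at 1.56 and 17.8 FPKM, a relative log2 fold of 3.23, larger than that of HSPB1. HSPB11, which despite its name works in intraflagellar transport, was at 22.3 and 8.32 FPKM (-0.96). HSPB6 was below the level tested, at 0.102 and 0.425 FPKM.

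Of 21 tested J-domain, nucleotide exchange and other HSP70 partners, 6 passed 2-fold downward and 1 upward (list median -0.42), beside 9.46% and 12.8% of all tested genes. The J-domain genes DNAJB4 (14.3 and 2.28 FPKM, -1.86) and DNAJA1 (185 and 43.1 FPKM, -1.72) were lowest. They were followed by BAG2 (12.3 and 2.76 FPKM, -1.47), the cochaperone DNAJC7 (71.0 and 19.9 FPKM, -1.43) and GRPEL2, a mitochondrial exchange factor (9.43 and 2.44 FPKM, -1.24). After the GC correction 6 of the 21 were again at least 2-fold lower, beside 5.94% of all genes, but they were not the same 6. DNAJC7 (-1.41), DNAJA1 (-1.34) and DNAJB4 (-1.05) stayed past 2-fold, and BAG2 (-0.79) and GRPEL2 (-0.66) did not. DNAJB1, the stress-inducible J-domain partner of HSPA1A, was at 88.9 and 67.4 FPKM (-0.04), and BAG3, itself a heat shock gene, at 38.5 and 28.7 FPKM (-0.06). SIL1, an exchange factor for HSPA5 that was singled out after its value was seen, was the 1 higher gene, at 12.8 and 21.3 FPKM (1.05), and by the deposited values 0 of the 21 passed 2-fold upward.

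In the mitochondrial list of import, folding and protease genes, 2 of 20 passed 2-fold downward and 0 upward (list median -0.21), where the share downward was near the 9.46% of all tested genes. They were GRPEL2 and DNLZ, which keeps mitochondrial HSP70 soluble (6.56 and 1.55 FPKM, -1.21). The import channel gene TOMM40 (106 and 40.7 FPKM, -0.99) and the protease gene YME1L1 (57.7 and 22.9 FPKM, -0.94) were just inside 2-fold. HSPE1 at -1.06 therefore lay among the lower values of this list, and HSPD1 at -0.52 did not reach 2-fold. Corrected for GC content, TOMM40 (58.3% GC) stood at -1.49 and DNLZ (64.4% GC) at -1.84, both past 2-fold. YME1L1 (40.6% GC) then stood at -0.47 and GRPEL2 (39.0% GC) at -0.66, both inside it. With TIMM44 (-1.01), singled out after its value was seen, the lower genes numbered 3, beside 5.94% of all genes. HSPE1 and HSPD1 stood at -1.25 and -0.36 on this scale.

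Of 22 other heat shock response genes, 7 passed 2-fold downward and 2 upward (list median -0.69), beside 9.46% and 12.8% of all tested genes. CHORDC1, an HSP90 cochaperone, was lowest at 71.4 and 5.45 FPKM (-3.13), and HSP90AA1, the inducible HSP90, followed at 794 and 97.7 FPKM (-2.65). HSP90AB1, the constitutive HSP90, was at 878 and 561 FPKM (-0.29). After the GC correction the order of the first 2 reversed, with HSP90AA1 at -2.57, CHORDC1 at -2.38 and HSP90AB1 at -0.38. Of the 22, 6 were then at least 2-fold lower, beside 5.94% of all genes. The 2 higher genes were HSPB8 and SERPINH1, which encodes a chaperone of collagen (22.3 and 40.4 FPKM, 1.19), the latter singled out after its value was seen. By the FPKM as deposited, 11 of the 22 passed 2-fold downward, beside 19.0% of all tested genes, and 1 upward, beside 6.24%. SERPINH1 stood at 0.83 with the FPKM as deposited and at 0.75 after the GC correction. Only HSPB8 passed 2-fold upward in both cases. HSPA9, HSPA4L, GRPEL1, GRPEL2, STIP1, DNAJA1, DNAJB1, DNAJB4, DNAJB6, BAG3 and HSPB8 each stand in 2 lists, so these counts overlap.

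Among the heat shock factors and their regulators, 2 of 8 tested genes passed 2-fold upward, beside 12.8% of all tested genes, and 0 downward, beside 9.46% (list median -0.13). HSF4, a factor best known from the lens, was at 2.22 and 6.99 FPKM (1.67), and HDAC6, a deacetylase tied to misfolded proteins, at 15.1 and 26.9 FPKM (1.15). HSF2, which can pair with HSF1, was at 8.27 and 2.80 FPKM (-0.93). SIRT1, a deacetylase of HSF1, was at 10.7 and 4.36 FPKM (-0.77), and HSBP1, a small protein that binds HSF1, at 36.0 and 19.0 FPKM (-0.53). HSF4 (62.5% GC) and HDAC6 (56.2% GC) stood at 1.08 and 0.73 after the GC correction. With the FPKM as deposited they stood at 1.31 and 0.79, so of these only HSF4 passed 2-fold in each case. HSF2 (40.5% GC), SIRT1 (40.5% GC) and HSBP1 (44.5% GC) stood at -0.44, -0.28 and -0.39 after the GC correction. With the FPKM as deposited they stood at -1.29, -1.12 and -0.89.

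**Figure D5:**
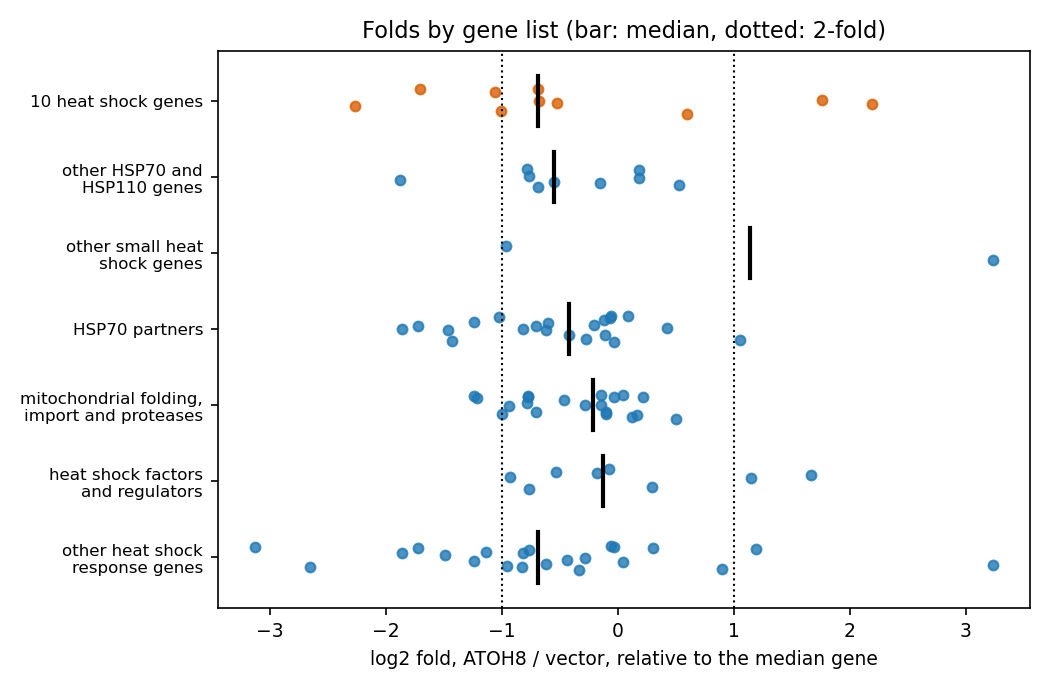
Log2 fold relative to the median gene for each tested gene of the 10 heat shock genes and of 6 lists of related genes, 1 point per gene, with a bar at the median and dotted lines at 2-fold; vertical scatter within a row has no meaning. The medians run from -0.69 for the members and the other heat shock response genes to 1.14 for the 2 other small heat shock genes.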

How the data were processed

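RNA from 1 vector and 1 ATOH8 culture of A549 cells was sequenced. The submitters' processing notes name CASAVA, HISAT2, Cufflinks 2.2.1 and hg38 (GRCh38) without roles; the sources used here do not give the annotation release, strand setting or depth. Per the file headers, the authors deposited FPKM in a separate file for each library. Per the file headers they also deposited a comparison of the libraries as log2 ratios with p-values and q-values. Its other 2 columns hold per-library values under names that match no label, and they were left out.

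The per-library values were matched on gene identifier and added up within a symbol (18786 symbols), and the 12342 genes averaging 1 FPKM or more were tested. Folds used a pseudocount of 1. The GC correction was a lowess (statsmodels 0.14.6, fraction 0.3) on the GC content of the longest GENCODE 29 transcript, known for 12313 genes; its folds are distances from that curve. Reading frames and transcripts were aligned with Biopython 1.88. The scripts for the folds and the GC correction were tested on simulated data. No test between groups was run. Named genes were ATOH8, the 10 members, and from each list the 5 largest absolute folds plus HSPA5, HSPA9, HYOU1, HSF2, DNAJB1, BAG3 and HSP90AB1. The A549 marker list served as a check of the label: 2 of its 13 tested genes passed 2-fold upward and 0 downward. Of it, CDH1, AKR1C1, GCLM and KRT8 also fell under this rule: CDH1 was at 15.4 and 54.1 FPKM (2.11), AKR1C1 at 691 and 1088 FPKM (1.01), GCLM at 47.3 and 18.2 FPKM (-0.97) and KRT8 at 2381 and 2302 FPKM (0.31). The members and lists were chosen with earlier results of these data known. Alternatives were other pseudocounts, filters and scalings, the highest row of a shared symbol, and the GC correction. A marker gene is not reported here.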

Additional observations from a re-analysis of the deposited data

How the results depend on the processing

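HSPA4, HSPH1, HSPE1 and HSPB1 stayed past 2-fold in the same direction under all 7 alternatives: HSPA4 ranged from -2.06 to -1.39, HSPH1 from -2.62 to -1.74, HSPE1 from -1.42 to -1.03 and HSPB1 from 1.56 to 2.23. HSPA8 ended just inside 2-fold with a pseudocount of 0.1 (-0.98) and with upper quartile scaling (-0.98), and CRYAB did with a pseudocount of 5 (0.86). HSPA1A and HSPA1B passed 2-fold with the FPKM as deposited (-1.04 and -1.05) and after the GC correction (-1.21 and -1.20). HSPD1 ranged from -0.88 to -0.36 and HSF1 from -0.04 to 0.63, within 2-fold throughout. Without replicates and without read counts, no value here has an error.

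Counts at least 2-fold higher or lower moved as follows. With a pseudocount of 5, 1 member was higher, 0 HSP70 partners higher and 3 lower, 0 mitochondrial genes lower, 1 heat shock factor or regulator higher, 1 A549 marker higher, and 636 of all genes higher and 524 lower. With a pseudocount of 0.1, 2 other HSP70 genes, 1 other small heat shock gene and 1 factor or regulator were lower. Of all genes, 1670 were lower with that pseudocount, against 1168 in the main setting. With the FPKM as deposited, 4 other HSP70 genes, 1 other small heat shock gene and 8 mitochondrial genes were lower, 0 partners higher, 1 factor or regulator higher and 2 lower, 1 other response gene higher and 11 lower, 1 A549 marker higher and 1 lower, and 770 of all genes higher and 2340 lower. Scaling to an equal sum per library (TPM) gave the same values for these list counts except 7 mitochondrial genes lower. With it, 1091 of all genes were higher and 2288 lower. The members at least 2-fold lower numbered 6 with the FPKM as deposited and 4 with TPM, and the HSP70 partners 8 and 7. With the GC correction, applied to the lists and to all genes after seeing the data, 1 other small heat shock gene was lower, 0 partners, 1 factor or regulator and 1 other response gene were higher, and 1026 of all genes were higher and 732 lower. With a mean FPKM of at least 5, 1 member, 1 factor or regulator and 947 of all genes were higher, and 1 mitochondrial gene and 972 of all genes lower. That filter tests fewer genes than the 12342 of the main setting, so its counts cannot be set beside the main counts. Without CRYAB, an alternative added after seeing the data, 1 member was higher, beside 1579 of all genes in the main setting. The cause of these shifts was not tested. No paired analysis was possible because each group had 1 library.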
